A study of Homo sapiens with 18 samples.

Results

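A set of 10 genes that mark or regulate the epithelial-mesenchymal transition were followed through an RNA sequencing series of human cancer cell lines. They were chosen by name, and all 10 were found among the 20263 genes of the count table and passed the filter on low counts. They are the epithelial surface proteins CDH1 and EPCAM, the mesenchymal markers CDH2, VIM and FN1, and the transcription factors TWIST1, ZEB1, ZEB2, SNAI1 and SNAI2. The series holds 18 libraries under 3 line labels: MHCC-97H, a liver cancer line, MDA-MB-231, a breast cancer line, and HCT-116, a colon cancer line. Under each label, 3 libraries came from cells given 20 nM H3B-8800 for 24 h and 3 from cells given DMSO, the solvent. H3B-8800 is a small molecule that binds the SF3B complex of the spliceosome and alters splicing. All cells were labelled wild type and grown in medium with 10% fetal bovine serum. Whether the 3 libraries in each group are separate cultures is not stated, and p-values then measure only the spread between these samples, which may be technical.

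In the epithelial-mesenchymal transition, cells lose the adhesion of an epithelial sheet and gain the shape and motility of mesenchymal cells. E-cadherin, encoded by CDH1, falls while N-cadherin, vimentin and fibronectin rise, and the SNAI, ZEB and TWIST families of transcription factors drive the change in part by repressing CDH1 through E-box sequences in its promoter. Carcinoma cell lines hold many mixtures of these features. As background, MDA-MB-231 is known as a line rich in vimentin and poor in E-cadherin, and HCT-116 as a line that carries E-cadherin and EPCAM.

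The genes lie on 7 chromosomes of GRCh38. In GENCODE release 29, CDH1 is at chr16:68737225-68835548 (plus strand), EPCAM at chr2:47345158-47387601 (plus), CDH2 at chr18:27950966-28177446 (minus), VIM at chr10:17228259-17237593 (plus) and FN1 at chr2:215360440-215436172 (minus). TWIST1 is at chr7:19020991-19117672 (minus), ZEB1 at chr10:31318495-31529814 (plus), ZEB2 at chr2:144364364-144524583 (minus), SNAI1 at chr20:49982999-49988886 (plus) and SNAI2 at chr8:48917604-48921740 (minus). Antisense genes overlap exons of CDH1, CDH2, VIM, TWIST1, ZEB1 and ZEB2, over 136 to 1299 bases per antisense gene, with VIM-AS1, ZEB1-AS1 and ZEB2-AS1 among them. The strand setting of the counting is not given in the sources used here, so reads from these genes and their antisense partners cannot be told apart.

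VIM, FN1 and ZEB1 are shown with the sequence before their transcription start, because VIM and FN1 differed between labels in opposite directions and ZEB1 holds a match to the E-box that ZEB and SNAI factors bind. The bases are the plus strand at chr10:17227991-17228240 for VIM, the minus strand at chr2:215436173-215436318 for FN1, and the plus strand at chr10:31318167-31318416 for the most upstream of 7 listed starts of ZEB1, all from RefSeq on GRCh38.p14. Capitals mark matches, on either strand, to CAGGTG (the E-box), TGACGTCA (the cyclic AMP response element) and GGGCGG (the GC box bound by SP1).

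VIM: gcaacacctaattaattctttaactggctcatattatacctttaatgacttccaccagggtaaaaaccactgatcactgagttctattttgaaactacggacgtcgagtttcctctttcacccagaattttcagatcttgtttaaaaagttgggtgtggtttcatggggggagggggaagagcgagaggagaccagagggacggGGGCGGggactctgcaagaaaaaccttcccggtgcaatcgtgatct
FN1: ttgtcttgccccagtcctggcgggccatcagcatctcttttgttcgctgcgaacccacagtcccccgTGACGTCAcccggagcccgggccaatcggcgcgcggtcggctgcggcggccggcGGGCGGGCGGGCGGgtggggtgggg
ZEB1: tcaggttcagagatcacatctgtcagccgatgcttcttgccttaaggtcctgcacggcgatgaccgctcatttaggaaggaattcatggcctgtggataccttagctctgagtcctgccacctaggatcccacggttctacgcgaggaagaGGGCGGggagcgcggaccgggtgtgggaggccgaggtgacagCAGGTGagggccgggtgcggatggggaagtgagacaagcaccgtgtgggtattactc

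The 250 bases before the start of VIM held no CAGGTG and 1 GC box. The 146 bases of FN1 shown held 1 cyclic AMP response element and a run of GC boxes that overlap each other. They stop where the GENCODE gene begins, upstream of the RefSeq start. The full 250 bases before the RefSeq start of FN1 held no CAGGTG, 1 cyclic AMP response element and 6 GC boxes. The ZEB1 stretch held 1 CAGGTG, beginning 57 bases before the start, and 1 GC box. Across 35116 RefSeq promoter windows of 250 bases, 17.5% held CAGGTG, 1.65% held TGACGTCA and 42.6% held GGGCGG. These shares are per window, and ZEB1 has 7 listed starts. Numbered from the most upstream, ZEB1 start 3 held 2 CAGGTG, and starts 2, 4, 5, 6 and 7 held none. The windows of CDH2, at 2 starts, and ZEB2 held no CAGGTG. RefSeq windows were matched for 5 of the 10 genes.

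The libraries held 28232315 to 41488278 counts each. Levels are given as counts scaled to a common library total (CPM) after TMM scaling, and a gene was called where edgeR's Benjamini-Hochberg adjusted p over 14234 tested genes was under 0.05. Markers of the labelled tissues did not match the labels throughout. Of 10 liver markers, 8, among them ALB and AFP, had 0 counts in all 6 libraries labelled MHCC-97H, and the list summed to 4.74 to 6.09 CPM there. The liver list summed to 72.1 to 93.8 CPM in libraries labelled MDA-MB-231 and to 82.3 to 107 CPM in libraries labelled HCT-116. Intestinal markers (7 in the table) summed to 0 CPM in the MHCC-97H libraries, 1532 to 1566 CPM in those labelled MDA-MB-231 and 1543 to 1646 CPM in those labelled HCT-116. The 7 breast markers summed to 29.5 to 40.9 CPM under MHCC-97H, 73.9 to 83.0 CPM under MDA-MB-231 and 71.0 to 81.9 CPM under HCT-116. The breast list thus did not set MDA-MB-231 libraries apart from HCT-116 libraries. Of that list, ANKRD30A and SCGB2A2 had 0 counts under every label. Groups are therefore named below as the libraries carrying a label.

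**Figure D1:**
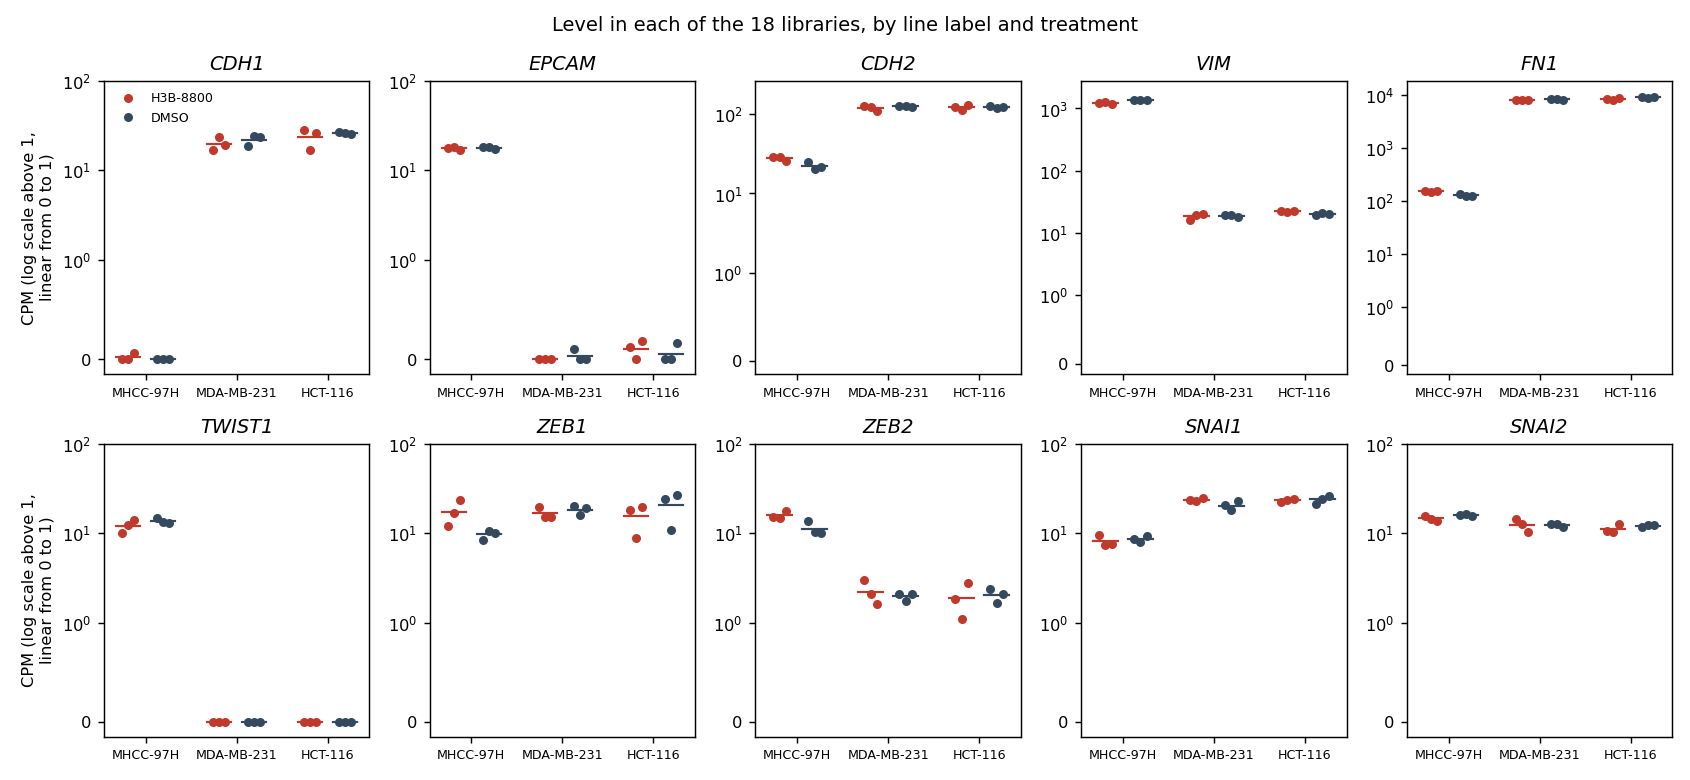
CPM of each gene in every library (points) with the group mean (lines), H3B-8800 in red and DMSO in dark blue, on an axis that is logarithmic above 1 CPM and linear below. The MDA-MB-231 and HCT-116 libraries sit at nearly the same level for each gene, and those labelled MHCC-97H sit apart for CDH1, EPCAM, CDH2, VIM, FN1, TWIST1, ZEB2 and SNAI1.

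Among DMSO libraries, the MHCC-97H label differed from each other label at all 10 genes. VIM, EPCAM, TWIST1, ZEB2 and SNAI2 were higher under the MHCC-97H label, and CDH1, CDH2, FN1, SNAI1 and ZEB1 were lower. Calls were common in these comparisons: against MDA-MB-231 82.7% of all tested genes were called (39.5% higher and 43.2% lower), and against HCT-116 82.5% (39.5% higher and 43.0% lower), so 10 of 10 has to be read against a high background. The epithelial pair split in opposite directions, and so did the mesenchymal markers.

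CDH1, the adherens junction cadherin of epithelia, had 0 counts in all 3 DMSO libraries labelled MHCC-97H. It had 18.7, 24.3 and 23.4 CPM in those labelled MDA-MB-231 and 26.7, 26.2 and 25.8 CPM in those labelled HCT-116. Set against 3 counts over the MHCC-97H group, CDH1 was at least 642-fold lower than under the MDA-MB-231 label and at least 762-fold lower than under the HCT-116 label. EPCAM, an epithelial adhesion molecule and the usual surface tag of carcinoma cells, showed the reverse pattern. It stood at 18.1, 18.4 and 17.5 CPM under the MHCC-97H label, against 0.0998, 0 and 0 CPM under MDA-MB-231 and 0, 0 and 0.166 CPM under HCT-116.

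The EPCAM differences were 8.86 on the log2 scale (SE 0.70, adjusted p = 4.2e-08) and 8.33 (SE 0.67, adjusted p = 4.8e-08), with no overlap of libraries. With 1 library left out they ran from 8.31 to 12.30 and from 7.74 to 12.31. The low EPCAM values rest on 4 counts in 1 library labelled MDA-MB-231 and 6 counts in 1 labelled HCT-116. Small counts in the table were uneven: 71.1% of the 25269 values from 1 to 10 were even numbers, with 6867 values of 2 against 1624 of 1, while 50.2% of values from 51 to 200 were even. Whether both mates of a read pair were counted was not given in the sources used here. The bounds for CDH1 and TWIST1, set at 3 counts, cover counting error only and would be lower if both mates were counted. No library of the 18 carried more than 2 counts of CDH1 together with EPCAM above 0.181 CPM.

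CDH2 encodes N-cadherin, the mesenchymal and neural counterpart of E-cadherin. It had 25.2, 20.1 and 21.9 CPM under the MHCC-97H label, against 126, 127 and 123 CPM under MDA-MB-231 and 126, 119.7 and 125 CPM under HCT-116. The differences were -2.48 (SE 0.09, adjusted p = 2.9e-13) and -2.47 (SE 0.09, adjusted p = 3.2e-13) on the log2 scale. The libraries that carried E-cadherin transcripts were therefore also those with the higher N-cadherin transcript levels.

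VIM, the intermediate filament of mesenchymal cells, stood at 1381, 1383 and 1347 CPM under the MHCC-97H label, against 19.3, 19.1 and 17.7 CPM under MDA-MB-231 and 19.6, 21.1 and 20.3 CPM under HCT-116. It was 73.3-fold and 67.4-fold higher in the MHCC-97H libraries (log2 6.20, SE 0.08, adjusted p = 7.1e-18, and log2 6.08, SE 0.08, adjusted p = 8.6e-18). FN1, the extracellular matrix glycoprotein fibronectin, ran the other way. It stood at 138, 122 and 123 CPM under the MHCC-97H label, against 8504, 8518 and 8258 CPM under MDA-MB-231 and 9269.6, 8724 and 9219 CPM under HCT-116. The log2 differences were -6.04 (SE 0.06, adjusted p = 4.7e-19) and -6.15 (SE 0.06, adjusted p = 4.4e-19). The MHCC-97H libraries thus held much vimentin and little fibronectin transcript, and the others little vimentin and much fibronectin transcript. Of 6 fibroblast markers, COL1A2 and PDGFRA had 0 counts in the MHCC-97H libraries, and the list summed to 40.0 to 44.8 CPM there and 23.3 to 37.4 CPM in the others. COL1A1, a fibrillar collagen, made up most of the MHCC-97H sum, at group means of 38.1 and 40.9 CPM with H3B-8800 and DMSO, and stood at 0.0201 to 0.113 CPM in the others. LUM, a matrix proteoglycan, made up most of the sum in the others, at group means of 23.8 to 32.7 CPM.

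TWIST1, a basic helix-loop-helix factor that acts in mesoderm and neural crest, had 14.6, 13.4 and 13.0 CPM in the DMSO libraries labelled MHCC-97H. It had 0 counts in all 12 libraries of the other labels, treated or not. Set against 3 counts over the lower group, it was at least 511-fold and 523-fold higher under the MHCC-97H label than under MDA-MB-231 and HCT-116. Its paralog TWIST2 followed the same division, at 11.3 CPM in the MHCC-97H DMSO group and 0 CPM in the others.

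ZEB2, a zinc finger repressor of CDH1, had 13.5, 10.3 and 9.98 CPM under the MHCC-97H label, against 2.10, 1.74 and 2.11 CPM under MDA-MB-231 and 2.39, 1.65 and 2.11 CPM under HCT-116. The differences were 2.50 (SE 0.28, adjusted p = 4.4e-07) and 2.46 (SE 0.28, adjusted p = 5.3e-07) on the log2 scale. ZEB1, the closest relative of ZEB2, had 8.48, 10.7 and 10.1 CPM under MHCC-97H, against 19.9, 15.9 and 19.0 CPM under MDA-MB-231 and 24.0, 10.9 and 26.6 CPM under HCT-116. The ZEB pair therefore moved in opposite directions between labels, but the ZEB1 difference was the less firm. It was -0.91 (SE 0.34, adjusted p = 0.021) against MDA-MB-231 and -1.07 (SE 0.34, adjusted p = 0.0082) against HCT-116. Both ZEB1 calls were lost after a correction of each library for trends with GC content and with exonic length (-0.10, adjusted p = 0.76, and -0.25, adjusted p = 0.42). The call against MDA-MB-231 was also lost without DMSO replicate 1 of the MHCC-97H label (adjusted p = 0.069) or of the MDA-MB-231 label (adjusted p = 0.054). The longest annotated transcript of ZEB1 has 38.5% GC, lower than that of most annotated genes (percentile 9.1).

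SNAI1, the zinc finger repressor Snail, had 8.71, 7.96 and 9.24 CPM under the MHCC-97H label, against 20.4, 18.1 and 22.6 CPM under MDA-MB-231 and 21.4, 24.1 and 26.0 CPM under HCT-116. The differences were -1.24 (SE 0.11, adjusted p = 3.7e-08) and -1.46 (SE 0.11, adjusted p = 4.9e-09), so Snail transcripts were the higher where CDH1 was present. SNAI2, the related repressor Slug, differed least. It had 15.8, 16.3 and 15.5 CPM under MHCC-97H, against 12.7, 12.6 and 11.7 CPM under MDA-MB-231 and 11.7, 12.4 and 12.3 CPM under HCT-116. Its differences of 0.36 (SE 0.11, adjusted p = 0.0068) and 0.39 (SE 0.11, adjusted p = 0.0041) were not called when scaled by library totals alone (0.08, adjusted p = 0.51, and 0.13, adjusted p = 0.28). That scaling shifted the median of all genes to -0.372 against MDA-MB-231, where TMM scaling gave -0.091, and to -0.337 against HCT-116, where TMM gave -0.080.

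**Figure D2:**
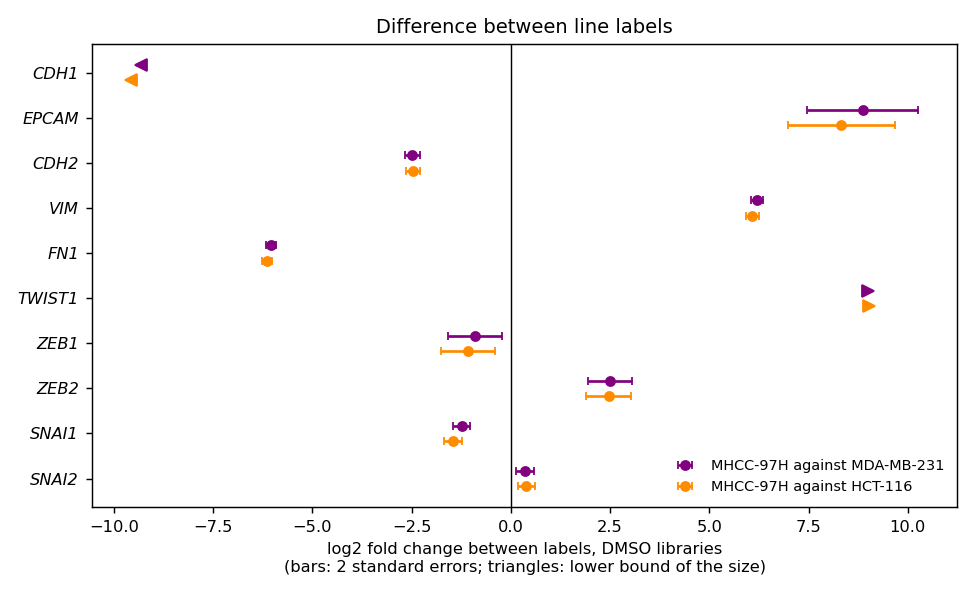
Log2 fold change of each gene between DMSO libraries labelled MHCC-97H and those labelled MDA-MB-231 (purple) or HCT-116 (orange), with bars of 2 standard errors and triangles where 1 group had 0 counts and only a bound on the size can be given. Points right of 0 are higher under the MHCC-97H label. VIM lies at 6.20 and 6.08 and FN1 at -6.04 and -6.15.

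Between MDA-MB-231 and HCT-116 libraries given DMSO, 0 of the 10 genes were called, where 0.0351% of all genes (5) were called. Of all genes, DESeq2 called 23 and limma voom 8 in this comparison. FN1 had the lowest unadjusted p of the 10 (log2 -0.11, SE 0.05, adjusted p = 1). The intervals of 2 standard errors ran from -0.67 to 0.18 for CDH1, from -0.14 to 0.18 for CDH2, from -0.25 to 0.01 for VIM, from -0.44 to -0.01 for SNAI1 and from -0.82 to 0.49 for ZEB1. A vimentin-rich and a vimentin-poor profile, as the background on these lines would have it, was not seen between these labels.

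Levels between genes can be compared per kilobase of exonic length. In DMSO libraries labelled MHCC-97H the order was led by VIM at 266 ± 3.94 CPM per kilobase (SD, n = 3). FN1, EPCAM and TWIST1 followed at 7.37, 7.15 and 6.71, with overlapping libraries between neighbours. SNAI1, SNAI2 and CDH2 came next at 5.12, 4.68 and 4.52, again overlapping. ZEB1 at 1.13 and ZEB2 at 0.449 stood apart below them, and CDH1 was at 0. Under the MDA-MB-231 label FN1 led at 487 ± 8.45 CPM per kilobase, then CDH2 at 25.3 and SNAI1 at 12.1. SNAI2, VIM and CDH1 overlapped at 3.64, 3.62 and 3.58, with ZEB1 at 2.11, ZEB2 at 0.0792, EPCAM at 0.0132 and TWIST1 at 0. The HCT-116 order was the same for the leading 3, with FN1 at 524, CDH2 at 25.0 and SNAI1 at 14.1. There CDH1 at 4.24, VIM at 3.94 and SNAI2 at 3.57 did not overlap. Exonic length is the union of all annotated exons, so the per-kilobase levels of FN1 (17.32 kb) and ZEB2 (25.06 kb) are low estimates. The same kind of length was used for the other genes, VIM (5.16 kb) among them. The order of genes at near levels, such as VIM, SNAI2 and CDH1, therefore depends on this choice of length.

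H3B-8800 was set against DMSO under each label. Under the MHCC-97H label 2 of the 10 genes were called, CDH2 and FN1, both higher with H3B-8800 and both by 1.25-fold or less. In that comparison 27.6% of all tested genes were called, 12.9% higher and 14.7% lower, so 2 of 10 is near the background. CDH1, EPCAM, VIM and the 5 transcription factors were not called. Under MDA-MB-231 and under HCT-116, 0 of the 10 genes were called, with 0.0351% of all genes called under each.

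CDH2 had 29.2, 29.1 and 25.6 CPM in H3B-8800 libraries labelled MHCC-97H, against 25.2, 20.1 and 21.9 CPM in DMSO libraries. All 3 treated libraries lay above all 3 controls, by a narrow margin at the nearest pair. The change was 0.32 on the log2 scale (SE 0.08, adjusted p = 0.012), or 1.25-fold. It was called under each of the other settings of scaling, filter, tool or trend (0.22 to 0.45). It was not called without DMSO replicate 2, the lowest control (0.25, adjusted p = 0.060). As 5 of the 10 genes had treated and control libraries apart under this label, the share of all genes, 47.6%, gives the scale for such separation.

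FN1 had 157, 150.1 and 154 CPM in H3B-8800 libraries labelled MHCC-97H, against 138, 122 and 123 CPM in DMSO libraries, with no overlap. The change was 0.27 on the log2 scale (SE 0.05, adjusted p = 0.0022), or 1.21-fold. After that same correction, FN1 turned to -0.22 (SE 0.09, adjusted p = 0.11). FN1 has 17.32 kb of annotated exons, more than 98.6% of annotated genes, and the correction brought the count of all called genes to 2179, against 3922 without it. The direction of FN1 under H3B-8800 therefore depends on whether that correction is made.

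ZEB1 had 11.9, 16.7 and 23.3 CPM in H3B-8800 libraries labelled MHCC-97H, against 8.48, 10.7 and 10.1 CPM in DMSO libraries. The treated libraries were all above the controls but spread widely. The value was 0.83 on the log2 scale (SE 0.34, adjusted p = 0.080), the largest in size among the genes with a fold, and it was not called. ZEB2 had 15.2, 14.9 and 17.7 CPM with H3B-8800, against 13.5, 10.3 and 9.98 CPM with DMSO, again without overlap (0.50, SE 0.25, adjusted p = 0.16). After GC and length correction the values were 0.46 for ZEB1 (adjusted p = 0.33) and -0.08 for ZEB2 (adjusted p = 0.86). Both genes were called when the 6 MHCC-97H libraries were fitted alone, at adjusted p = 0.035 for ZEB1 and 0.021 for ZEB2. DESeq2 called ZEB1 (adjusted p = 0.029) and limma voom called ZEB2 (adjusted p = 0.028).

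VIM had 1211, 1275 and 1190.3 CPM in H3B-8800 libraries labelled MHCC-97H, against 1381, 1383 and 1347 CPM in DMSO libraries. All treated libraries were below all controls, and the value of -0.16 (SE 0.06, adjusted p = 0.069) was not called by edgeR. DESeq2 (adjusted p = 0.045) and limma voom (adjusted p = 0.0088) called it at the same size, GC and length correction gave -0.20 (adjusted p = 0.042), and scaling by library totals gave -0.03 (adjusted p = 0.83). Ratios of genes within a library do not depend on scaling, but do depend on that correction. The log2 ratio of FN1 to VIM per length was -4.69, -4.83 and -4.70 with H3B-8800, against -5.08, -5.24 and -5.20 with DMSO, a difference of 0.43 (exact two-sided permutation p = 0.1, the smallest that 3 against 3 allows). After correction the log2 changes of FN1 and VIM were -0.22 and -0.20. The uncorrected difference was -0.03 under MDA-MB-231 (exact permutation p = 0.8) and -0.22 under HCT-116 (exact permutation p = 0.1). The ratio of CDH2 to VIM differed by 0.49 under MHCC-97H (exact permutation p = 0.1). These ratios were chosen after the values were seen.

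Under the MHCC-97H label the remaining genes had overlapping treated and control libraries. EPCAM had 17.7, 18.2 and 17.1 CPM with H3B-8800, against 18.1, 18.4 and 17.5 CPM with DMSO. Its interval of 2 standard errors ran from -0.82 to 0.76 in the fit over all 18 libraries. With the compared groups alone in edgeR its value was 0.03 (SE 0.07, adjusted p = 0.78). TWIST1 had 9.96, 12.2 and 13.9 CPM with H3B-8800, against 14.6, 13.4 and 13.0 CPM with DMSO (-0.19, SE 0.17, adjusted p = 0.47). SNAI1 averaged 8.19 CPM with H3B-8800 and 8.63 CPM with DMSO (interval -0.30 to 0.15), and SNAI2 averaged 14.7 and 15.9 CPM in the same order (interval -0.33 to 0.11). CDH1 had 2 counts in 1 treated library and 0 in the other 5 libraries, so no fold is given.

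**Figure D3:**
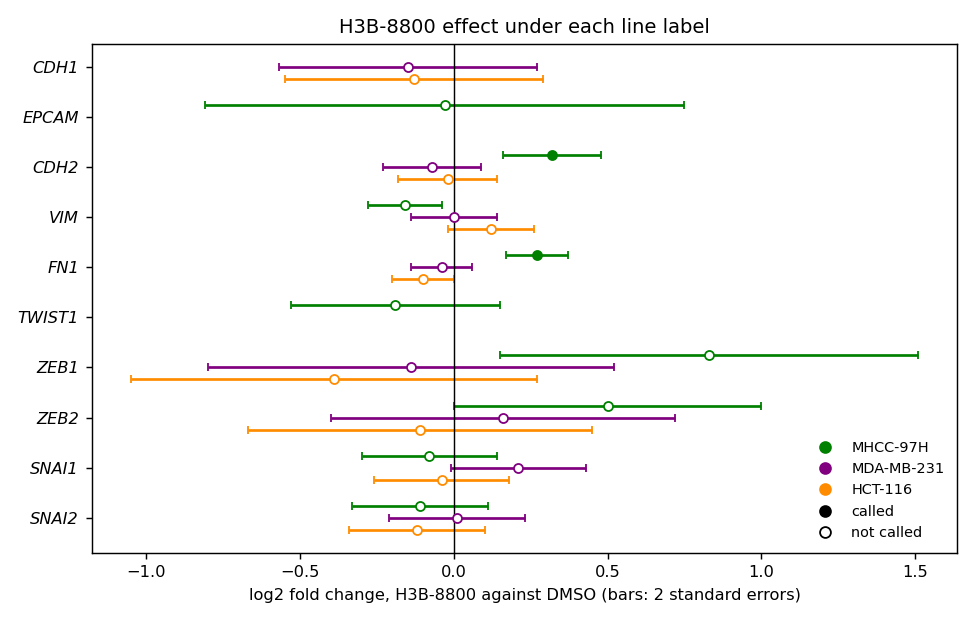
Log2 fold change of H3B-8800 against DMSO under the MHCC-97H (green), MDA-MB-231 (purple) and HCT-116 (orange) labels, with bars of 2 standard errors. Filled points were called, and genes at or near 0 counts under a label have no point there. CDH2 (0.32) and FN1 (0.27) under the MHCC-97H label are the 2 filled points, and FN1 turns to -0.22 after GC and length correction.

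Under the MDA-MB-231 label CDH1 had 17.0, 23.5 and 19.2 CPM with H3B-8800, against 18.7, 24.3 and 23.4 CPM with DMSO (interval -0.58 to 0.27). CDH2 had 127, 122 and 111 CPM with H3B-8800, against 126, 127 and 123 CPM with DMSO (interval -0.23 to 0.10). FN1 had 8095, 8262 and 8157 CPM with H3B-8800, against 8504, 8518 and 8258 CPM with DMSO (interval -0.14 to 0.05). Treated and control libraries overlapped for each of these genes. SNAI1 was the 1 gene of the 10 with libraries apart, at 23.2, 23.0 and 24.6 CPM with H3B-8800 and 20.4, 18.1 and 22.6 CPM with DMSO (0.21, SE 0.11, adjusted p = 0.72), where 18.5% of all genes had libraries apart. EPCAM had 0 counts with H3B-8800 and 4 counts with DMSO. Across all genes under this label, 1024 had an unadjusted p under 0.05 with edgeR and 49 were called by DESeq2.

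Under the HCT-116 label CDH1 had 28.6, 17.0 and 26.1 CPM with H3B-8800, against 26.7, 26.2 and 25.8 CPM with DMSO (interval -0.55 to 0.29). VIM was the 1 gene of the 10 with libraries apart, at 22.5, 21.3 and 22.5 CPM with H3B-8800 and 19.6, 21.1 and 20.3 CPM with DMSO (0.12, SE 0.07, adjusted p = 1), where 7.00% of all genes had libraries apart. FN1 had 8624, 8070.3 and 8734 CPM with H3B-8800, against 9269.6, 8724 and 9219 CPM with DMSO (interval -0.19 to -0.01, adjusted p = 1). ZEB1 had 18.2, 8.87 and 19.8 CPM with H3B-8800, against 24.0, 10.9 and 26.6 CPM with DMSO (interval -1.05 to 0.27). Replicate 2 was the lowest for ZEB1 with both H3B-8800 and DMSO. Across all genes under this label, 655 had an unadjusted p under 0.05 with edgeR and 22 were called by DESeq2.

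The difference in H3B-8800 effect between labels was tested itself. The effect on FN1 under the MHCC-97H label exceeded that under MDA-MB-231 by 0.31 (SE 0.07, adjusted p = 0.0085) and that under HCT-116 by 0.37 (SE 0.07, adjusted p = 0.012). CDH2 exceeded it by 0.39 against MDA-MB-231 (SE 0.12, adjusted p = 0.031) and by 0.34 against HCT-116 (SE 0.12, adjusted p = 0.064). These made 2 of 10 and 1 of 10 genes called, where 20.2% and 13.2% of all genes were called. The 2 comparisons share the MHCC-97H libraries. After GC and length correction, FN1 turned to -0.32 (adjusted p = 0.11) and -0.20 (adjusted p = 0.37), and CDH2 against MDA-MB-231 was 0.24 (adjusted p = 0.11). The CDH2 call was also lost when any 1 of 7 libraries was left out (adjusted p from 0.063 to 0.083): under MHCC-97H, H3B-8800 libraries 1 and 2 or DMSO libraries 2 and 3, and under MDA-MB-231, H3B-8800 library 3 or DMSO libraries 1 and 2. VIM differed by -0.16 (adjusted p = 0.24) and -0.28 (adjusted p = 0.053), and ZEB1 by 0.97 (adjusted p = 0.16) and 1.22 (adjusted p = 0.093). Both ZEB1 differences were called with a replicate block in edgeR (adjusted p = 0.0062 and 0.003), and neither after GC and length correction alone. The compared groups alone called that from MDA-MB-231 (adjusted p = 0.029), and DESeq2 that from HCT-116 (adjusted p = 0.032). Between MDA-MB-231 and HCT-116, 0 of the 10 genes were called, against 0.0351% of all genes. In that comparison of effects, 588 of all tested genes had an unadjusted p under 0.05 with edgeR.

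**Figure D4:**
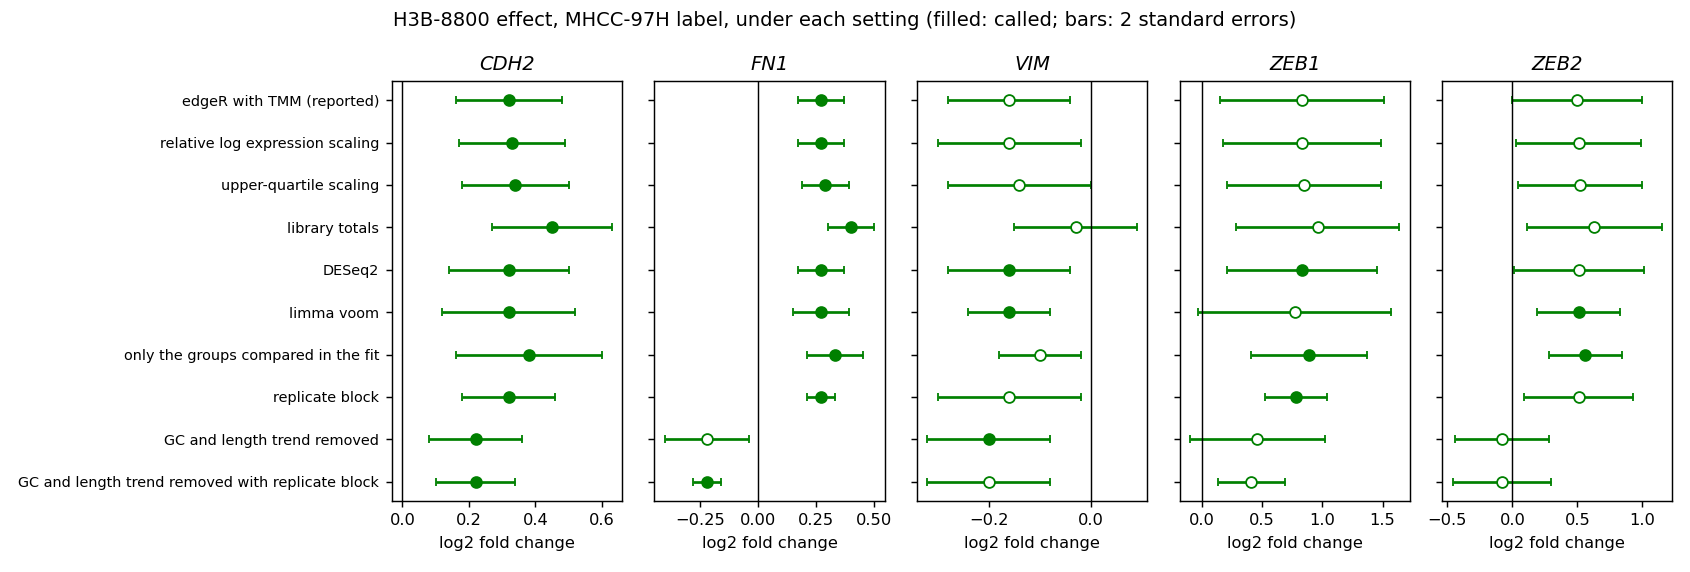
H3B-8800 effect under the MHCC-97H label for 5 genes (columns) under 10 settings (rows), as log2 fold change with bars of 2 standard errors and filled points where called. CDH2 stays between 0.22 and 0.45 and called, FN1 and ZEB2 turn to -0.22 and -0.08 after GC and length correction, and VIM and ZEB1 are called under some settings.

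The wider programme was read from 5 lists. Under the MHCC-97H label, of 18 tested genes in a list of epithelial adhesion and identity, 3 rose and 2 fell with H3B-8800, a share near the 27.6% of all genes called. After GC and length correction 2 rose and 0 fell, beside 15.3% of all genes called. GRHL1, a grainyhead factor of epithelial barriers, rose to 2.26 ± 0.598 CPM with H3B-8800, against 0.972 ± 0.182 CPM with DMSO (SD, n = 3, log2 1.21, SE 0.31, adjusted p = 0.012). KLF5, an epithelial zinc finger factor, rose by 0.14 (adjusted p = 0.033), and JUP, the junction protein plakoglobin, fell by 0.22 (adjusted p = 0.019), a value that was -0.02 after GC and length correction. The median of the list was -0.073, beside -0.058 over all genes.

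Of 20 tested genes in the mesenchymal list, 3 rose and 4 fell, with a median of -0.074, beside 27.6% of all genes called, 12.9% higher and 14.7% lower. After GC and length correction 2 rose and 3 fell, beside 15.3% of all genes called. FBN1, the microfibril protein fibrillin, rose to 137 ± 9.41 CPM with H3B-8800, against 81.6 ± 5.79 CPM with DMSO (log2 0.75, SE 0.11, adjusted p = 0.0011). It kept 0.42 (adjusted p = 0.0014) after GC and length correction. ITGA5, the alpha subunit of the fibronectin receptor, fell by 0.22 on the log2 scale (adjusted p = 0.019). After that correction its value was -0.17, and with library totals it was -0.08.

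Of 19 other transcription factors of the transition, 1 rose and 2 fell, beside the 27.6% of all genes called. After GC and length correction 0 were called, beside 15.3% of all genes. TCF4, an E-protein, averaged 3.79 CPM with H3B-8800 and 2.44 CPM with DMSO (0.63, adjusted p = 0.033), but 0.03 after GC and length correction. ID3 and ID1, which block E-proteins, fell by 0.36 (adjusted p = 0.0035) and by 0.25 (adjusted p = 0.011), and stood at -0.09 and 0.02 after that correction. Of 21 corepressors and regulators of SNAI turnover, 5 rose and 2 fell, with a median of 0.066, beside the same 27.6%. After correction 1 rose and 3 fell, with a median of -0.036, beside 15.3% of all genes called. SUZ12 rose by 0.38 (adjusted p = 0.0073), and stood at 0.09 after correction (adjusted p = 0.29). RCOR1, a scaffold of the LSD1 complex, rose by 0.43 on the log2 scale (adjusted p = 0.0021). CTBP1, a corepressor that ZEB factors recruit, fell by 0.40 (adjusted p = 0.0022). RCOR1 and CTBP1 kept their direction and call after correction (0.29 and -0.33).

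Of 23 genes of TGF-beta signalling, a main inducer of the transition, 3 rose and 3 fell, near the 27.6% of all genes called. The median was -0.022. After GC and length correction 3 rose and 2 fell, beside 15.3% of all genes called. TGFB2, a ligand, rose to 8.23 ± 0.401 CPM with H3B-8800, against 4.93 ± 0.675 CPM with DMSO (log2 0.74, SE 0.11, adjusted p = 0.0014), and by 0.51 after correction (adjusted p = 0.00064). TGFBR3, the coreceptor betaglycan, rose by 0.54 (adjusted p = 0.0088), a call lost after correction (0.25, adjusted p = 0.12). LTBP3, which binds latent TGF-beta, fell by 0.29 (adjusted p = 0.0091), a call lost with library totals (-0.15, adjusted p = 0.11). The split of calls depends on scaling: over all genes 1831 were higher and 2091 lower with TMM, and 2501 higher and 346 lower with library totals. With library totals the higher and lower calls were 5 and 0 in the epithelial list, 4 and 0 in the mesenchymal list, 1 and 1 among transcription factors, 8 and 1 among corepressors and 7 and 0 in TGF-beta signalling. Under MDA-MB-231 and under HCT-116, 0 genes of these lists were called.

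Between labels the lists were also mixed. Against MDA-MB-231 in DMSO, the MHCC-97H libraries were higher in 7 and lower in 8 genes of the epithelial list, and higher in 9 and lower in 7 of the mesenchymal list, with 82.7% of all genes called. The mesenchymal split depends on processing: 8 were higher and 10 lower with library totals, and 12 higher and 4 lower after GC and length correction. Beta-catenin (CTNNB1) and p120-catenin (CTNND1), which bind E-cadherin inside the cell, averaged 119 and 62.8 CPM under the MHCC-97H label, against 374 and 270.2 CPM under MDA-MB-231 (log2 -1.66 and -2.11, adjusted p = 3.3e-12 and 2e-12). After correction these differences were -0.68 and -1.32. ITGA5 averaged 3191 CPM in MHCC-97H libraries and 573 CPM in MDA-MB-231 libraries (log2 2.48, adjusted p = 1.2e-14), a difference opposite in sign to that of FN1, its ligand. LOXL2, a collagen crosslinking enzyme, averaged 2618 and 309 CPM in the same order (log2 3.08, adjusted p = 2.5e-14). TGFBR2, the type II TGF-beta receptor, averaged 14.9 CPM in MHCC-97H libraries and 169 CPM in MDA-MB-231 libraries (log2 -3.50, adjusted p = 8e-15). LTBP1, which binds latent TGF-beta, and SMURF1, a ubiquitin ligase of the pathway, were also lower (log2 -4.27 and -2.27, adjusted p = 8.5e-17 and 2.8e-15). Of the TGF-beta list, 5 were higher and 14 lower in MHCC-97H libraries. KLF5 averaged 362 CPM in MHCC-97H libraries and 124 CPM in MDA-MB-231 libraries, and FSTL1, a secreted glycoprotein, 152 and 0.14 CPM in that order. Among transcription factors, 6 were higher and 10 lower: FOXC1, a forkhead factor, differed by 4.55, SOX4 by -1.47 and SOX9 by -1.32 on the log2 scale. Among corepressors and regulators of SNAI turnover, 4 were higher and 10 lower, a split that turned to 10 higher and 6 lower after correction, with a list median of 0.12 against -0.396 before it. CSNK1E, a casein kinase, differed by 2.50, SUZ12, a Polycomb subunit, by -2.28 and SETDB1, a histone methyltransferase, by -0.79.

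For each gene, the gene whose pattern was most like it was found by the root mean square difference of centred log2 CPM over the 18 libraries. Up to 2 of the nearest are named. CDH1 was nearest to MTSS1 (0.27) and ABCB4 (0.291), and CDH2 to ZNF432 (0.076) and LMTK2 (0.0889). EPCAM had SLC16A6 (0.62) among its 2 nearest. FN1 was nearest to CGN (0.123), the tight junction protein cingulin, at 0.510 CPM in DMSO libraries labelled MHCC-97H, 37.7 CPM in those labelled MDA-MB-231 and 38.8 CPM in those labelled HCT-116, and then to CMTM8 (0.133). VIM was nearest to DUSP15 (0.121) and COL25A1 (0.137), and TWIST1 to SH3RF3 (0.0901) and MT1F (0.106). These 4 genes had 0 CPM under the other labels, where such likeness depends on the prior count of 2. ZEB1 was nearest to LYST (0.231) and UBLCP1 (0.234), and ZEB2 to TRIM52 (0.222) and GOLGA8B (0.242). SNAI1 was nearest to RGS12 (0.104) and ENSG00000267645 (0.112), and SNAI2 to TDP2 (0.1) and IDI1 (0.105). These measures describe how libraries of mainly 2 profiles are divided, since MDA-MB-231 and HCT-116 libraries share 1 profile. In bulk RNA, fewer cells with a transcript and less of it per cell cannot be told apart.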

How the data were processed

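Gene counts of 18 libraries were used as the authors deposited them, as whole-number counts per Ensembl gene with no normalization. Reads were handled with fastp and HISAT2 on GRCh38, per the submitters' processing notes. The counting tool, annotation and strand setting were not given in the sources used here. Names, coordinates, lengths and GC content came from GENCODE release 29, which held 20224 of the 20263 genes. The model was fitted by edgeR 4.0.16 under R 4.3.3 with 1 mean for each of 6 groups, TMM scaling, filterByExpr and the robust quasi-likelihood F test, adjusted by Benjamini-Hochberg over 14234 genes. Alternatives were other scalings and filters, DESeq2 1.42.0, limma voom 3.58.1, a replicate block, removal of a GC and exonic length trend (splines with 5 degrees of freedom), a fit of the compared groups alone, and each library left out. The fitting script was tested on simulated data. Depth was 28232315 to 41488278 counts per library. The members, lists and alternatives were chosen with earlier results of these data known. All members were named, together with up to 3 called genes per list by adjusted p. TWIST2 was named after its values were seen. Some genes that this rule names are not reported here.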

Additional observations from a re-analysis of the deposited data

Results flagged for a closer look

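The H3B-8800 effect differed between line labels by a test of the difference itself in 3 cases among the 10 genes. Of all genes, 20.2% were called for the difference from MDA-MB-231 and 13.2% for that from HCT-116. FN1 had an effect 0.31 higher on the log2 scale under the MHCC-97H label than under MDA-MB-231 (adjusted p = 0.0085) and 0.37 higher than under HCT-116 (adjusted p = 0.012). In all 3 H3B-8800 libraries labelled MHCC-97H it lay above all 3 DMSO libraries. CDH2 had an effect 0.39 higher under the MHCC-97H label than under MDA-MB-231 (adjusted p = 0.031), also with 3 of 3 treated libraries above the controls. Under the MHCC-97H label 47.6% of all genes had treated and control libraries apart. The CDH2 call was lost after GC and length correction (0.24, adjusted p = 0.11). It was also lost when certain single libraries were left out (adjusted p from 0.063 to 0.083). Both FN1 differences turned negative after GC and length correction, and the part of such trends in them was not tested further.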

How the results depend on the processing

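The calls between the MHCC-97H label and the others in DMSO libraries numbered 10 under each setting other than those that lost ZEB1 or SNAI2 (named above), and 9 to 10 (MDA-MB-231) and 10 (HCT-116) when 1 library was left out. Under the MHCC-97H label the H3B-8800 effect called 4 of the 10 genes with DESeq2, with limma voom and with the compared groups alone. Of all genes, 34.5%, 28.5% and 31.5% were called in that order, so these counts are near the background. The reported setting called 2, and 1 to 3 were called with 1 library left out. The difference of effects from MDA-MB-231 gave 0 calls after GC and length correction, 1 with the block added and 1 to 3 with 1 library left out, against 2. The difference from HCT-116 gave 2 with upper-quartile scaling (11.1% of all genes called), 2 with library totals (12.8%) and 4 with DESeq2 (21.9%), against 1 (13.2%). It gave 0 after correction (FN1 -0.20, 6.12% of all genes called) and 0 with the compared groups alone (FN1 0.37, adjusted p = 0.059, 0.149% of all genes called). With 1 library left out it gave 1 to 3. Under MDA-MB-231, HCT-116 and between them, 0 of the 10 genes were called in any setting.

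The replicate block gave 3 calls for the difference from HCT-116 (23.3% of all genes called), and 2 together with the correction (11.6%). It called ZEB1 under the MHCC-97H label (0.78, adjusted p = 0.0022). The numbers were not treated as pairs in the reported fit. Same-numbered libraries correlated at -0.05, 0.06 and 0.02 under MHCC-97H, 0.12, 0.07 and 0.02 under MDA-MB-231, and 0.05, 0.19 and 0.03 under HCT-116. Over the 11847 genes from 1 CPM these were -0.06, 0.04 and 0.01, then 0.18, 0.10 and 0.07, then 0.16, 0.36 and 0.10. Over those genes, different-numbered libraries ran from -0.09 to 0.08 under MHCC-97H, -0.16 to 0.06 under MDA-MB-231 and -0.29 to 0.20 under HCT-116. Under MDA-MB-231 each same-numbered value thus lay above the different-numbered ones, and the reported fit ignores any such pairing. With the block and correction, FN1 was -0.22 under MHCC-97H (adjusted p = 0.0018), -0.32 for the difference from MDA-MB-231 (adjusted p = 0.0023) and -0.19 for that from HCT-116 (adjusted p = 0.022).

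Further log2 values turned sign, none of them called. After GC and length correction, under MHCC-97H, these were EPCAM at 0.01, TWIST1 at 0.07 (0.06 with the block), ZEB2 at -0.08 and SNAI1 at 0.19. Under MDA-MB-231 they were VIM at 0.01 and FN1 at 0.10, and between MDA-MB-231 and HCT-116 in DMSO, CDH2 and SNAI2 at -0.01. For the difference from MDA-MB-231 they were ZEB2 at -0.40 (-0.39 with the block) and SNAI1 at 0.02 (0.01 with the block). For that from HCT-116 they were ZEB2 at -0.05 (-0.02 with the block), SNAI1 at 0.24 and SNAI2 at -0.17. Library totals gave EPCAM 0.10, SNAI1 0.06 and SNAI2 0.02 under MHCC-97H, SNAI2 -0.02 under MDA-MB-231, VIM 0.01 and SNAI2 0.04 for the difference from MDA-MB-231, and SNAI1 0.11 for that from HCT-116. The compared groups alone gave EPCAM 0.03. VIM under MDA-MB-231 was 0.00 to 0.02, and CDH1 for MDA-MB-231 minus HCT-116 was 0.00 to 0.02, over the scaling, tool and block settings that turned them. Except for the correction, the cause was not tested.

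With 1 library left out, further uncalled values crossed 0, with these ranges. Under MDA-MB-231 VIM ran from -0.06 to 0.09, ZEB2 from -0.11 to 0.35 and SNAI2 from -0.10 to 0.12. Under HCT-116 CDH1 ran from -0.28 to 0.05, CDH2 from -0.07 to 0.03, ZEB2 from -0.48 to 0.16 and SNAI1 from -0.11 to 0.03. Between MDA-MB-231 and HCT-116 in DMSO, CDH2 ran from 0.00 to 0.03, ZEB1 from -0.47 to 0.07 and ZEB2 from -0.18 to 0.08. For the difference of effects between MHCC-97H and HCT-116, SNAI1 ran from -0.17 to 0.04 and SNAI2 from -0.04 to 0.12. For that between MDA-MB-231 and HCT-116, CDH1 ran from -0.21 to 0.13, CDH2 from -0.09 to 0.01 and ZEB1 from -0.02 to 0.56.

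Over all genes, the count under MHCC-97H was 2179 after correction, against 3922, and 2141 to 4455 with 1 library left out. It was 49 (DESeq2) and 14 (compared groups alone) against 5 under MDA-MB-231, and 22 and 1 against 5 under HCT-116. For the differences of effects it was 1492 after correction against 2871 from MDA-MB-231, and 871 after correction, 3320 with the block and 21 with the compared groups alone against 1878 from HCT-116. With 1 library left out these ran from 1470 to 3661 and from 322 (HCT-116 DMSO library 3) to 2841 (HCT-116 DMSO library 2), so the 20.2% and 13.2% of all genes called in these comparisons depend on which libraries are included. Depth limits CDH1 under MHCC-97H, EPCAM under the other labels and TWIST1 there to bounds at a few counts.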
